A study of Mus musculus with 4 samples.

Results

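The comparison described here is the step from 48 to 72 h without doxycycline in tumours of iNRAS-475, a melanoma line of the mouse whose NRAS expression depends on the drug. It takes in 2 of the 4 arrays of the series, the array of a tumour 72 h after withdrawal and the array of a tumour 48 h after withdrawal, and it covers the 13525 genes that passed a filter on low values, out of 18193 genes measured. The members were chosen by the treatment on the labels alone. The 4 tumours grew from cells injected into the skin of nude mice, which lack a thymus and most T cells, and all hosts drank 2 mg/ml doxycycline while the tumours reached 200 to 500 mm3 over 6 weeks. The control tumour was taken with the drug still given, and the other tumours were taken 24, 48 and 72 h after it was withdrawn. Skin was trimmed off each tumour, about 50 mg of tissue was frozen, and total RNA was hybridised to an Affymetrix mouse array. The labels give no further alleles of the line and neither the age nor the sex of the hosts, and the line is a single one. Each condition has 1 array, so no difference below has a replicate error or a test, and animal, tumour piece and hours off the drug cannot be told apart. The labels do not say if an array holds RNA of 1 animal or of a pool.

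NRAS is a small GTPase that passes growth signals through the RAF and MEK kinases to ERK. ERK raises the transcription of its own feedback inhibitors, such as the DUSP phosphatases and Sprouty proteins, of AP-1 factors and of cyclin D1, so these transcripts serve as a readout of the pathway. A tumour under the skin also holds RNA of the host: fibroblasts that lay down collagen, macrophages, vessels, and any fat or muscle that lies beside it, such as the thin muscle sheet under mouse skin.

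The question the step addresses is what differed on the third day without the drug, beyond what was present after the second day. Values are intensities as deposited, and a difference is log2(intensity + 32) at 72 h minus the same at 48 h. The added 32 is close to the median intensity of 33.8 to 34.0 on these arrays and shrinks the differences of dim genes. The terms 2-fold higher and 2-fold lower stand for a difference of 1 or more above or below 0. By this measure 121 genes were 2-fold higher at 72 h, 0.895% of those measured above the filter, and 28 were 2-fold lower, 0.207%. The middle 95% of differences lay between -0.40 and 0.61 with a median of 0, 6363 genes were above 0, 5337 were below it and 1825 had exactly equal values on both arrays. The gene just inside the upper limit was Nfix, a transcription factor, at 1.01, and just outside it was Lyz2, a macrophage lysozyme, at 0.995. At the lower limit the corresponding genes were Crabp1, a retinoic acid binding protein, at -1.04 and Ivns1abp at -0.999.

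The adjacent steps had the opposite balance or fewer genes. From the control to 24 h, a step that shares no array with the one described, 36 genes (0.266%) stood 2-fold higher and 9 (0.0665%) stood 2-fold lower. From 24 to 48 h, a step that shares the 48 h array, 74 were 2-fold higher (0.547%) and 135 were 2-fold lower (0.998%). The 72 h array held the highest of the 4 values for 3642 genes (26.9%) and the lowest for 2934 (21.7%). Among the 121 genes 2-fold higher, the 72 h value was the highest of the 4 for 120, the exception being the chemokine Ccl6. Among the 28 genes 2-fold lower it was the lowest of the 4 for 27, the exception being the ubiquitin ligase Nedd4. Both sets were chosen by their 72 h value against that at 48 h, which largely fixes these 2 counts. They describe the sets and do not support a difference particular to 72 h. In the step from the control to 24 h the same 121 genes had a median difference of -0.02, with 2 of them 2-fold higher and 2 of them 2-fold lower, and the 28 genes had a median of 0.03 with none past 2-fold.

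**Figure D1:**
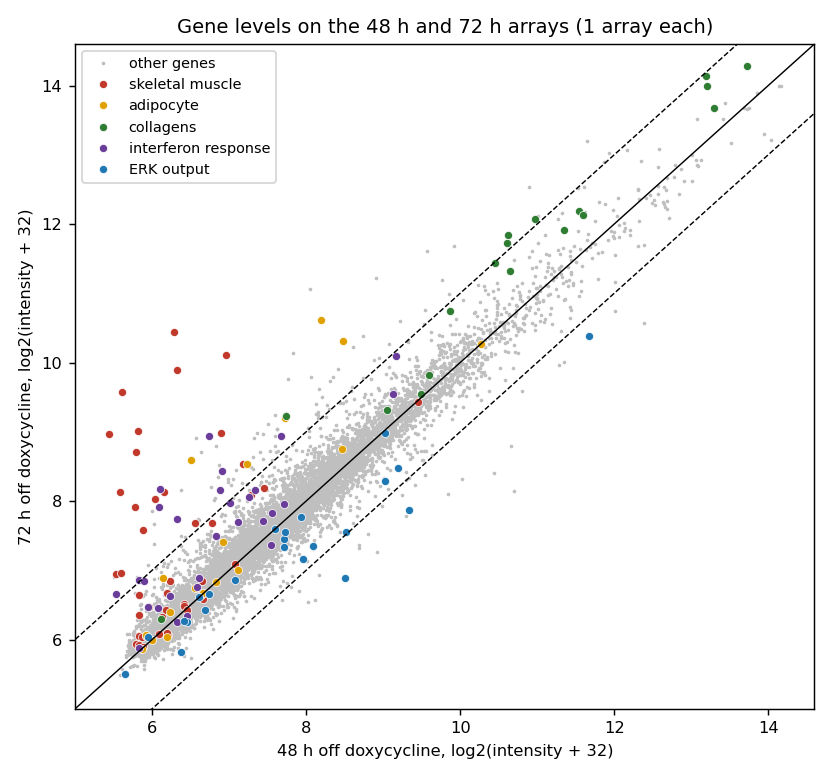
Each point is a gene, with log2(intensity + 32) on the 48 h array on the x axis and on the 72 h array on the y axis, 1 array each. The solid line marks equal values and the dashed lines a difference of 1 in either direction. The 17 red points (skeletal muscle) and 5 orange points (adipocyte) above the upper dashed line include the genes farthest from it while the other points of these lists lie between the lines, green points (collagens) lie above the solid line at the bright end, purple points (interferon response) lie above it at low and middle levels, and blue points (ERK output) lie on or below it, apart from 1 slightly above.

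The labelled tissue was checked against its markers. Sox10, a transcription factor of neural crest cells and melanoma, had intensities of 3771 with the drug, 3613 at 24 h, 4681 at 48 h and 3844 at 72 h, with a difference of -0.28 in the step and -0.34 and -1.01 on its other probe sets. Of the pigment genes, Tyr, Tyrp1, Mlana and Oca2, which encode tyrosinase, a related melanosomal enzyme, the melanoma antigen MART-1 and a melanosomal transporter, were below the level filter. Pmel, which builds the fibrils of the melanosome, had intensities of 73.1, 49.8, 103 and 199.7 in that order and a difference of 0.78. Mitf, the master regulator of pigment cells, stood at 50.3, 56.5, 93.1 and 115, a difference of 0.23. The tumours thus held bright Sox10 with little transcript of the pigment enzymes on all 4 arrays, and the median of the 11 pigment genes in the step was 0.00. Mouse Nras had an intensity of 163 at both 48 and 72 h, with differences of -0.13 and -0.09 on its other probe sets. The labels do not say if any of these probe sets reads the transgene.

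The greatest differences of the step were in genes of fast skeletal muscle fibres. Of 66 muscle markers measured, 44 passed the filter, and of these 17 were 2-fold higher at 72 h and none 2-fold lower, 36 were above 0, 6 were below and the median difference was 0.56. Myh4, the myosin heavy chain of the fastest fibres, and others passed the filter only through their 72 h values, so these counts describe and do not support the direction. Where the filter used the control and 24 h arrays, which do not enter the step, the median was 0.49. The summed intensity of the measured markers was 3355 with the drug, 3565 at 24 h, 3047 at 48 h and 10673 at 72 h. The sum was highest at 72 h, and its similar values on the first 3 arrays do not hold for each member, as some were brighter at 24 h.

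Acta1, the actin of the skeletal muscle filament, had intensities of 47.5 with the drug, 284 at 24 h, 45.6 at 48 h and 1353 at 72 h, a difference of 4.16. It was high on the 72 h array and intermediate at 24 h. Tnnc2, the calcium-binding troponin of fast fibres, had intensities of 21.5, 55.9, 16.9 and 729 on the same arrays, a difference of 3.96. Atp2a1, the calcium pump that refills the sarcoplasmic reticulum of fast fibres, stood at 54.9, 76.8, 48.3 and 916, a difference of 3.56. Both had their highest value before 72 h on the 24 h array, as Acta1 did. Myh4 had intensities of 11.5, 9.88, 11.5 and 470.4, a difference of 3.53. Mylpf, a light chain of fast myosin, stood at 24.2, 44.4, 24.3 and 486, a difference of 3.20. Myh4 thus had no 24 h excess, whereas Mylpf had a small one. Ckm, the muscle creatine kinase that buffers ATP, had intensities of 96.9, 96.9, 92.4 and 1074, a difference of 3.15, although a second probe set of the gene differed by only 0.16. Mybpc2, the myosin binding protein of fast fibres, stood at 22.1, 22.1, 23.6 and 388, a difference of 2.92. Ttn, the giant spring protein of the sarcomere, stood at 39.0, 49.5, 15.9 and 248, a difference of 2.55, with 2.01 and 0.12 on its other probe sets.

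The muscle enzymes and calcium proteins followed the same pattern with smaller differences. Eno3, the muscle enolase, differed by 2.08, Pygm, the muscle glycogen phosphorylase, by 2.00, and Pvalb, the calcium buffer of fast fibres, by 1.98. Actn3, an actinin found in fast fibres, differed by 1.69, and Ryr1, the calcium release channel, by 1.36. Members of the slow fibre programme and the myogenic factors were not among the bright ones. Myh7, the slow myosin heavy chain, had intensities of 51.0 with the drug, 34.0 at 24 h, 36.3 at 48 h and 35.5 at 72 h, a difference of -0.02. Tnni1, the slow troponin I, stood at 92.2, 71.6, 56.0 and 54.2, a difference of -0.03. Both were lowest or near lowest on the late arrays. Myod1 and Myog, the transcription factors that switch on muscle differentiation, differed by 0.00 and -0.10, and Mb, the oxygen store of oxidative fibres, by 0.25. Among the 22 markers below the filter, the slow troponin genes Tnnc1 and Tnnt1 had no value above 22.6 at 48 or 72 h. Myh1 and Myh2, which encode fast and not slow myosin heavy chains, were also dim. Myh1 had 15.6 at 48 h and 16.2 at 72 h, and Myh2 had 12.1 and 13.5, so not all fast fibre genes were brighter. Neb, which sets the length of thin filaments, had 9.83 at 48 h and 39.0 at 72 h.

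The promoters of Myh4 and Mylpf are shown because they belong to the muscle genes with the greatest differences and carry the E-box CAGCTG, the hexamer that the MyoD family is known to bind. The sequences are from RefSeq (GRCm38.p6), 250 bases before to 50 after the start of the gene, 5′ to 3′ on the strand of the gene, with the E-box in capitals. Myh4 lies on the plus strand of chromosome 11 with this window at chr11:67237562-67237861, and Mylpf on the plus strand of chromosome 7 at chr7:127211358-127211657.
Myh4: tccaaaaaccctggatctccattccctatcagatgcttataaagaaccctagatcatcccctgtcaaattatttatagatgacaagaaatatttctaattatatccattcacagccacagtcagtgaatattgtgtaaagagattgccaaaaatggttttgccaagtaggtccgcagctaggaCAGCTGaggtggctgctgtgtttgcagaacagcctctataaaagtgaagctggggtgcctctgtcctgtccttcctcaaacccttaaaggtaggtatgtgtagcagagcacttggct
Mylpf: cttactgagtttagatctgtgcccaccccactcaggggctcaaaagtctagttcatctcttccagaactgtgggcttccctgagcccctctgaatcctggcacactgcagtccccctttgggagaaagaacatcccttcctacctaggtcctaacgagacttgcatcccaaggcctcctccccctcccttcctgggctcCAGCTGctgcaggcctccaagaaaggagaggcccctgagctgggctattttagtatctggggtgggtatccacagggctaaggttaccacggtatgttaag
Of the 44 muscle markers kept, 31 had a promoter in the table and 20 of these held the hexamer, which reads the same on both strands. Among the 14 with a promoter that were 2-fold higher, 9 held it. Over 27025 genes with a promoter the share was 18.29%. A match describes these letters and not a bound site.

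**Figure D2:**
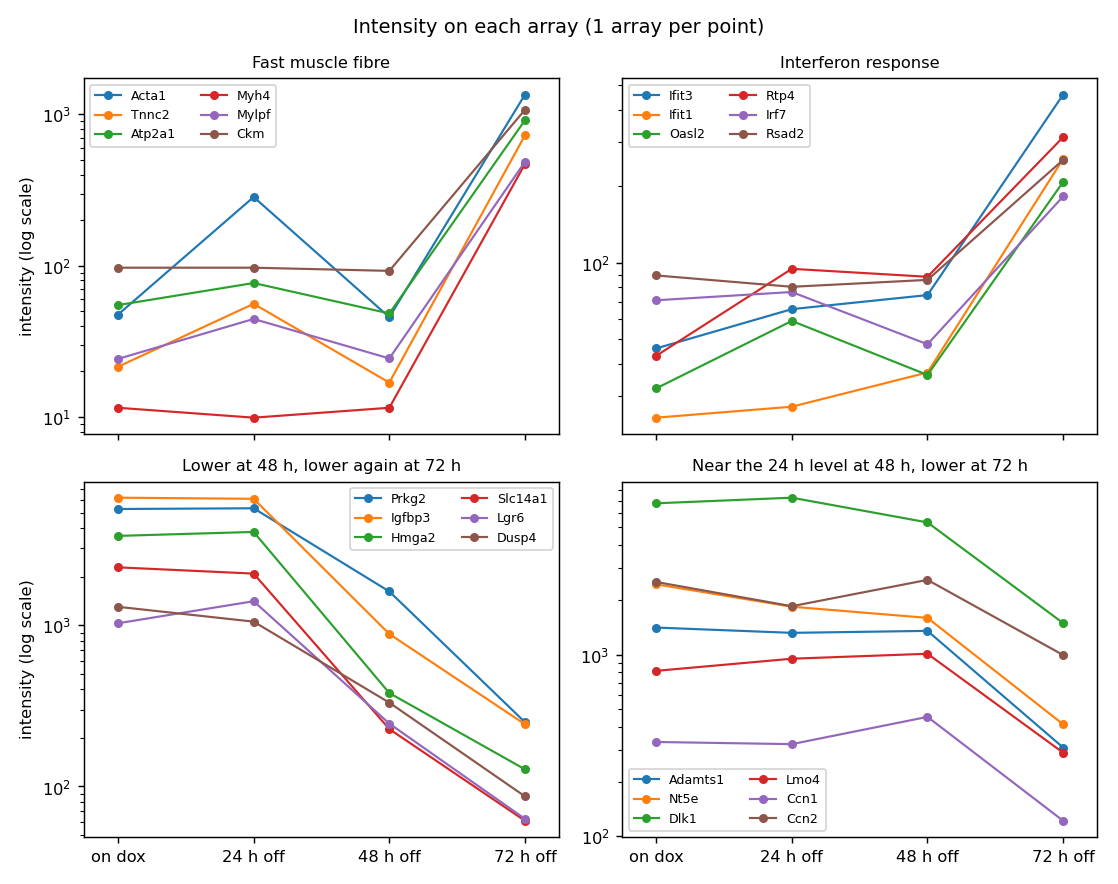
Intensity on a log axis for the control, 24 h, 48 h and 72 h arrays, 1 array per point, with lines joining the values of a gene. The 6 fast muscle fibre genes were brightest at 72 h, with Acta1 at 284 at 24 h, and so were the 6 interferon response genes. The lower panels show 6 genes that were lower at 48 h and lower again at 72 h, and 6 genes that were lowest at 72 h. The latter, titled near the 24 h level at 48 h, differed from it by -0.45 (Dlk1) to 0.47 (Ccn2).

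Genes of fat cells were also brighter at 72 h. Of 23 adipocyte markers measured, 18 were kept, 5 of them were 2-fold higher, 12 were above 0, 2 were below and the median was 0.18. Adipoq, the hormone adiponectin, had intensities of 64.0 with the drug, 15.6 at 24 h, 58.9 at 48 h and 352 at 72 h, a difference of 2.08. Fabp4, the fatty acid carrier of adipocytes, stood at 203, 70.8, 323 and 1234, a difference of 1.83, with 0.04, 0.49 and 1.85 on its other probe sets. Car3, a carbonic anhydrase abundant in fat and muscle, stood at 199, 113, 260.0 and 1541, a difference of 2.43, with 1.82 on another probe set. These 3 genes had their lowest value at 24 h. Lpl, the lipase that frees fatty acids from lipoproteins, differed by 1.47 and Plin4, a lipid droplet coat protein, by 1.31. Other fat genes had equal values: the desaturase Scd1 had an intensity of 1201 on each of the 24, 48 and 72 h arrays, with a difference of -0.33 on a dim second probe set, and Retn, the hormone resistin, and Aqp7, a glycerol channel, were equal at 48 and 72 h. The summed intensity of the adipocyte markers was 3096, 2477, 3191 and 6469.

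**Figure D3:**
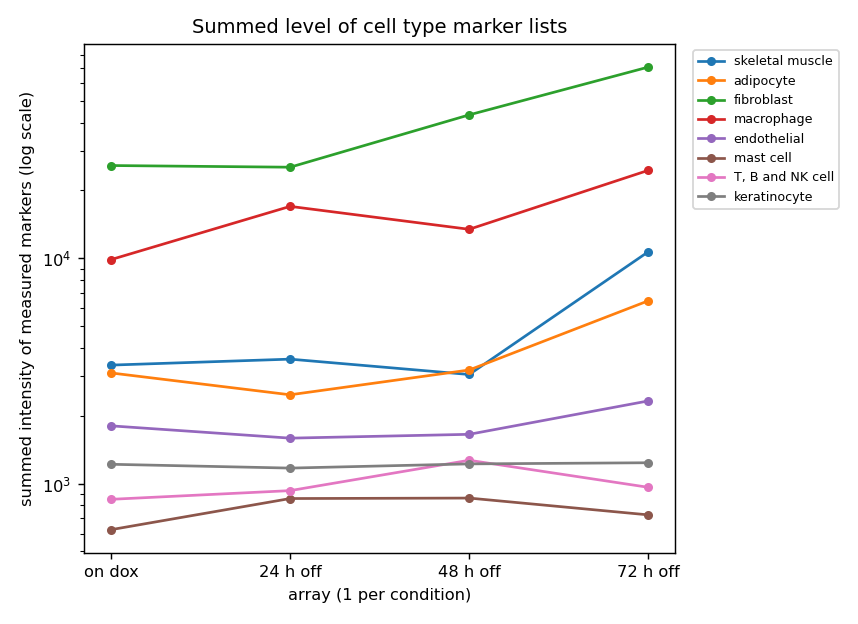
Summed intensity of the measured markers of 8 cell types on a log axis, for the control, 24 h, 48 h and 72 h arrays, 1 array per point. Muscle and adipocyte sums are highest at 72 h after 3 lower arrays, fibroblast sums are higher at 48 h than before and higher again at 72 h, macrophage sums have peaks at 24 and 72 h, and keratinocyte sums stay between 1171 and 1237.

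Muscle and fat genes made up 22 of the 121 genes 2-fold higher, and a further 99 lay outside those lists, as did 13463 of all 13525 genes kept. Matrix and fibroblast lists held 11 of the 121, the interferon, MHC, macrophage and complement lists held 15, and 63 were in none of the 37 lists. Of all genes kept, the collagen, other matrix and fibroblast lists held 18, 28 and 15, with some shared. The interferon, MHC class I, MHC class II, macrophage and complement lists held 29, 11, 6, 27 and 16, also with some shared. The share of all genes in no list was not counted. All groups below were measured on the array on which the muscle and fat sums were highest, and the part of muscle and fat tissue in their differences was not tested. In bulk tissue, more cells of a type and more RNA per cell cannot be told apart.

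Collagens and other matrix genes were broadly higher at 72 h. All 18 collagens kept were above 0, with a median of 0.65 and a range from 0.05 to 1.49; 4 were 2-fold higher and the 72 h value was the highest of the 4 for 16. Col1a1, the main chain of type I collagen, had intensities of 3797 with the drug, 4046 at 24 h, 9348 at 48 h and 18005 at 72 h, a difference of 0.94. Col4a1, a chain of basement membrane collagen, stood at 1261, 1024, 1546 and 3624, a difference of 1.21, and 1.03 on another probe set. Col6a3, a chain of the microfibrillar type VI collagen, stood at 1061, 1521, 1979 and 4273, a difference of 1.10. All of these were above their control level at 48 h and brightest at 72 h. Col14a1, a fibril-associated collagen, differed by 1.49, and its other probe sets by 0.89 and -0.10, so this value depends on the probe set.

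Among the other matrix genes 22 of 28 were above 0, 5 were 2-fold higher and the median was 0.40. Cilp, a cartilage and connective tissue protein that binds growth factors, had intensities of 182 with the drug, 172 at 24 h, 233 at 48 h and 2100.0 at 72 h, a difference of 3.01. Postn, periostin, a matricellular protein of activated stroma, stood at 781, 754, 1871 and 5879, a difference of 1.64. Postn was counted in the Schwann and neural crest list and not among these 28 genes. Cilp was thus bright on the 72 h array alone, whereas Postn was already brighter at 48 h. The small leucine-rich proteoglycans, which bind collagen fibrils, shared this direction. Dcn, decorin, stood at 394, 226, 726 and 3108, a difference of 2.05, with 0.22 on another probe set. Lum, lumican, stood at 319, 162, 939 and 3252, a difference of 1.76. Bgn, biglycan, stood at 2945, 3042, 3886 and 8327, a difference of 1.09, with 0.93 and 0.998 on its other probe sets. Some members were not higher. Thbs1, thrombospondin, had intensities of 154, 213, 359 and 173, a difference of -0.93. Aspn, asporin, another proteoglycan of the same family, stood at 56.4, 148, 561 and 459.9, a difference of -0.27, with 0.24 on another probe set. Both were highest on the 48 h array, and Fbln2, fibulin-2, had a difference of -0.54.

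Fibroblast markers gave 4 of 15 2-fold higher, 13 above 0 and a median of 0.67, and 1 was lowest at 72 h. The list shares Col1a1, Dcn and others with the matrix lists. Dpt, dermatopontin, a dermal matrix protein, had intensities of 105 with the drug, 51.1 at 24 h, 82.2 at 48 h and 410.1 at 72 h, a difference of 1.95. Pdgfra, the growth factor receptor of fibroblasts, differed by 0.01, with -0.78 on another probe set, and S100a4, a calcium-binding protein, by -0.46. The list of ligands and WNT modulators had a median of 0.05 over 31 genes, with 1 gene 2-fold higher and 2 genes 2-fold lower. Igf1, insulin-like growth factor, was the higher one and stood at 123, 115, 150.1 and 519, a difference of 1.60, with 0.71, 1.58 and 1.50 on its other probe sets. Mdk, the heparin-binding growth factor midkine, which was not on that list, stood at 274, 169.8, 186 and 841, a difference of 2.00. Selenop, the selenium transport protein, stood at 1872, 1820.0, 3177 and 9341, a difference of 1.55. The 3 genes were highest at 72 h, and Selenop was also above its control level at 48 h.

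Interferon response genes formed another bright group at 72 h. Of 29 kept, 26 were above 0, 3 were below, 9 were 2-fold higher and the median was 0.67, and the 72 h value was the highest of the 4 for 22. Usp18 and Trim30a, both among the 9, passed the filter only through their 72 h values. These counts therefore describe and do not support the direction. With the filter on the control and 24 h arrays the median was 0.58. Ifit3 and Ifit1 encode proteins that bind foreign RNA and are among the standard readouts of type I interferon. Ifit3 had intensities of 46.0 with the drug, 65.7 at 24 h, 74.7 at 48 h and 460.2 at 72 h, a difference of 2.21. Ifit1 stood at 24.6, 27.1, 37.0 and 257, a difference of 2.07. Both were dim on 3 arrays and bright on the fourth. Oasl2, a member of the oligoadenylate synthetase family, stood at 32.04, 59.1, 36.2 and 208, a difference of 1.82. Rtp4, a receptor transport protein induced by interferon, stood at 43.0, 94.8, 88.2 and 313, a difference of 1.52. Irf7, the transcription factor that amplifies interferon production, stood at 71.2, 76.8, 47.8 and 183, a difference of 1.43. All 3 were highest at 72 h. Rsad2, the antiviral enzyme viperin, differed by 1.28, with 0.14 on another probe set, and Oas1a, which makes the messenger that activates RNase L, by 1.27.

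The promoters of Ifit1, Ifit3, Oas1a and Rsad2 are shown because these 4 genes were 2-fold higher in the step and hold the interferon-stimulated response element, searched as GAAANNGAAA on both strands. This is the motif through which the STAT and IRF complex downstream of type I interferon is known to act. The sequences are again RefSeq windows (GRCm38.p6) of 300 bases, 5′ to 3′ on the strand of the gene, with the motif or its reverse complement in capitals. Ifit1 lies at chr19:34640639-34640938 and Ifit3 at chr19:34583279-34583578, both on the plus strand. Oas1a lies at chr5:120907476-120907775 and Rsad2 at chr12:26456403-26456702, both on the minus strand.
Ifit1: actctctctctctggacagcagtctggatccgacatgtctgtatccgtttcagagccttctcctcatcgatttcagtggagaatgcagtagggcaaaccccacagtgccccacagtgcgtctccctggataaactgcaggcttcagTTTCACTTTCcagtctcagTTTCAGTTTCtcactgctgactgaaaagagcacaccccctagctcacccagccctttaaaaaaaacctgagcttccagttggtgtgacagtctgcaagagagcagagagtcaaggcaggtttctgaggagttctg
Ifit3: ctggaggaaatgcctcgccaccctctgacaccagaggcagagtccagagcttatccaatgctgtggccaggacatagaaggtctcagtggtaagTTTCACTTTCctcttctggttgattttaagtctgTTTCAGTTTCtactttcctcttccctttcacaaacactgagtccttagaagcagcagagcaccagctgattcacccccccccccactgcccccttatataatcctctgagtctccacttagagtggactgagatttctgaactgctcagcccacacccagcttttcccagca
Oas1a: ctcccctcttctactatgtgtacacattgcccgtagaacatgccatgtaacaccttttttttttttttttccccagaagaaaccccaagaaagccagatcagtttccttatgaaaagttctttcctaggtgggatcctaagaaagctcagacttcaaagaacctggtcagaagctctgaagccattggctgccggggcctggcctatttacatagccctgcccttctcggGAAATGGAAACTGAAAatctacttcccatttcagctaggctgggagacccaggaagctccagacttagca
Rsad2: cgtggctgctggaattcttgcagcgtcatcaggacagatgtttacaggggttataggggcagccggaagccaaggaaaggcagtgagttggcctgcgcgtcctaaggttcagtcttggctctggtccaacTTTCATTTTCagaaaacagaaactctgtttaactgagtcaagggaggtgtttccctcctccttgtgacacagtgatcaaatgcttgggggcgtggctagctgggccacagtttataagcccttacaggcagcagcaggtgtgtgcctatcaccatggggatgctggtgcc
Ifit1 and Ifit3 hold 2 matches each upstream of the start, Oas1a holds 2 that overlap, and Rsad2 holds 1. Of the 22 interferon list genes with a promoter in the table, 15 held the motif, and of the 7 that were 2-fold higher in the step 5 did. Over all 27025 genes the share was 3.993%. Oasl2 and Irf7 had no match, which says only that these letters are not in this window.

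A second group of interferon genes had its peak earlier. Iigp1, an immunity-related GTPase known for its response to interferon gamma, had intensities of 25.7 with the drug, 345 at 24 h, 81.5 at 48 h and 148 at 72 h, a difference of 0.67. Irgm1, a related GTPase, stood at 50.7, 264, 178 and 216, a difference of 0.24. Gbp2, a guanylate binding protein, stood at 50.6, 245, 154 and 133, a difference of -0.17. These 3 genes were highest on the 24 h array, where Ifit1 and Ifit3 were dim. MHC class II, which is induced by interferon gamma and presents antigen on professional presenting cells, went with them: Cd74, the invariant chain, stood at 378, 2510.4, 837 and 943, a difference of 0.17. Of 6 class II genes kept, 4 were above 0 and 2 below, none was 2-fold different and the median was 0.07. All 11 class I genes were above 0 but none reached 2-fold, and the median was 0.21. Tapbp, which loads peptides onto class I molecules, had the greatest value at 0.92, with -0.11 on another probe set.

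Macrophage markers were higher at 72 h as well. Of 27 kept, 22 were above 0, 3 were below, 6 were 2-fold higher and the median was 0.62. Csf1r, the receptor for the macrophage growth factor, had intensities of 708 with the drug, 1103 at 24 h, 837 at 48 h and 2318 at 72 h, a difference of 1.43, with 1.24 and 0.61 on its other probe sets. Mrc1, the mannose receptor, stood at 277, 277, 161 and 413, a difference of 1.21. Lyz1, a lysozyme, stood at 1259, 2819, 2022 and 4393, a difference of 1.11, with 1.05 and 0.26 on its other probe sets. Csf1r and Lyz1 had a first peak at 24 h and Mrc1 had none. Adgre1, the F4/80 antigen, differed by 0.62 and Cd68, a lysosomal protein of macrophages, by 0.25. Laptm5, a lysosomal membrane protein of blood cells, was 2-fold higher at 1.01 on its brightest probe set, but its others differed by 0.04, 1.70 and -0.02. The summed intensity of the macrophage markers was 9859, 16980, 13434 and 24529 on the 4 arrays. The tissue macrophage genes Stab1, a scavenger receptor, and F13a1, the clotting factor XIII subunit, differed by 1.22 and 1.09, and Apoe, the lipid carrier, by 1.03.

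Complement and lysosomal genes shared the direction at smaller size. All 16 complement and acute phase genes kept were above 0 with a median of 0.47, and none was 2-fold different. C1qb, a subunit of the first complement component, was the greatest at 0.86. Of 24 lysosome and autophagy genes 17 were above 0 and 7 below, with a median of 0.26, and the 72 h value was the highest of the 4 for 17. Ctsh, a cathepsin, differed by 0.70 and Hexa, a hexosaminidase, by 0.61, whereas Sqstm1, the autophagy receptor p62, differed by -0.45. These lists have members that macrophages express strongly, and the part of the macrophage sum in them was not tested.

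Endothelial markers were higher in 16 of 17 genes kept, with a median of 0.45, and none was 2-fold different. Tie1, a receptor kinase of vessel cells, passed the filter only through its 72 h value, so the count describes and does not support the direction. Sox18, a transcription factor of vessel cells, had intensities of 45.5 with the drug, 48.1 at 24 h, 38.3 at 48 h and 102 at 72 h, a difference of 0.93. Cdh5, the cadherin of endothelial junctions, stood at 34.9, 45.9, 53.9 and 121, a difference of 0.83. Both were highest at 72 h, and Flt1, a receptor for VEGF, was the only marker below 0, at -0.02. The other probe sets of Flt1 differed by -0.45, -0.19 and -0.14. Aplnr, the apelin receptor of vessel cells, stood at 53.9, 58.1, 50.6 and 253, a difference of 1.78, with 0.10 on another probe set. The pericyte and smooth muscle list was mixed, with 6 of 10 genes kept above 0, 4 below and a median of 0.22. Rgs5, a G protein regulator, differed by 1.05, with 0.25 and 0.33 on its other probe sets, and Pdgfrb, the PDGF receptor, by 0.85. Cspg4, the NG2 proteoglycan found on pericytes and on melanoma cells, differed by -1.32. Acta2 and Tagln of the same list differed by -0.19 and -0.15.

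Lists of several other cell types had medians at 0. The 8 keratinocyte markers kept had a median of 0 with a range from -0.10 to 0.13, and the 12 T, B and NK cell markers had a median of 0. The B cell markers of that list were lower. Ighm, the heavy chain of IgM, had intensities of 131 with the drug, 203 at 24 h, 505 at 48 h and 257 at 72 h, a difference of -0.89, with values from -0.34 to 0.01 on its other probe sets. Cd79a, a chain of the B cell receptor, stood at 43.5, 48.7, 75.8 and 46.2, a difference of -0.46, and Cd79b, its partner, differed by -0.09. Both Ighm and Cd79a were highest at 48 h. Mast cell markers had a median of -0.01, with the tryptase Tpsab1 at -0.69. The lists for skin epithelium, lymphoid and mast cells gave medians at or next to the value for all genes.

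**Figure D4:**
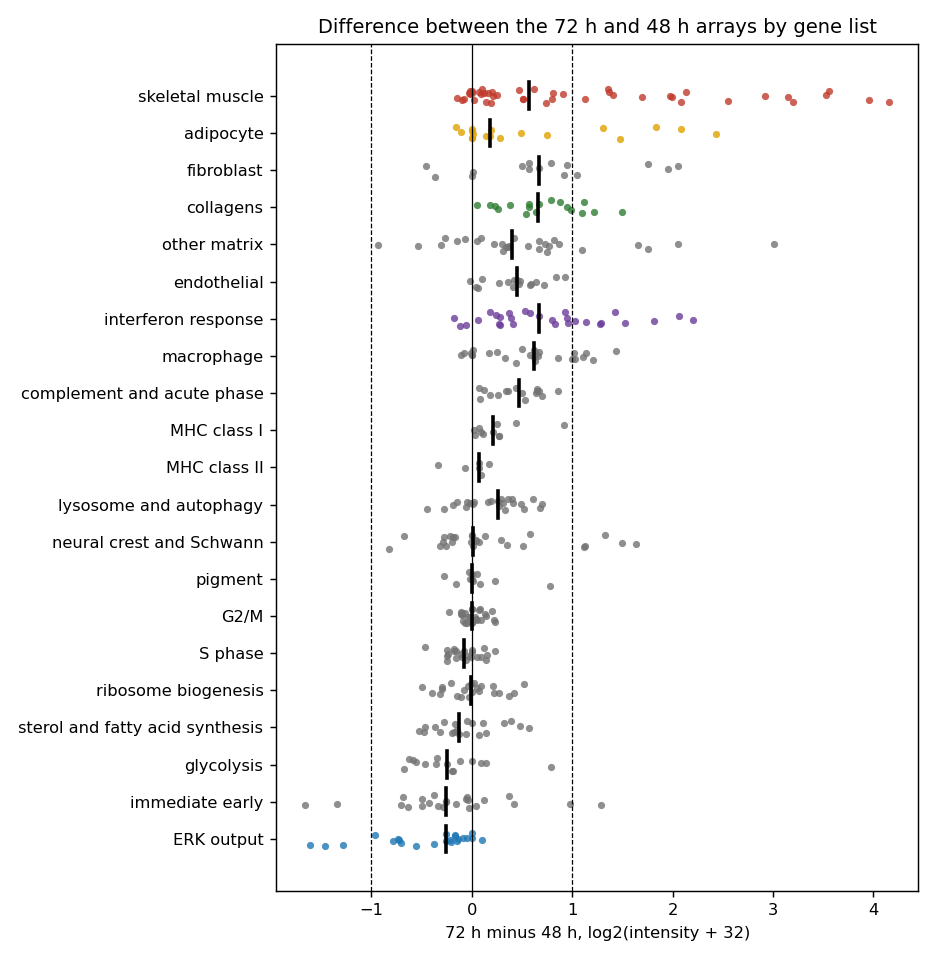
Difference between the 72 h and 48 h arrays, log2(intensity + 32), for the genes of 21 lists, 1 point per gene. Black bars are medians, the solid line is 0, which is also the median of all genes, and dashed lines mark 2-fold. Muscle reaches 4.16, collagens and complement have no point below 0, interferon genes have a median of 0.67, and ERK output has a median of -0.25 with its lowest point at -1.61.

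Of the 28 genes 2-fold lower, 2 were in the lists of host cells, which held 173 of the 13525 genes kept (1.28%) and 33 of the 121 genes 2-fold higher. They were Cspg4 and Mmp9, a matrix protease of neutrophils and tumour cells. The genes 2-fold lower included transcripts of the ERK pathway. Of 23 ERK output genes 20 were below 0, 1 was above, 2 were equal and 3 were 2-fold lower, with a median of -0.25, and the 72 h value was the lowest of the 4 for 20. The summed intensity of the list was 21932 with the drug, 20685 at 24 h, 7915 at 48 h and 4281 at 72 h. Ccnd1 gave much of this sum. Of the 23 members, 21 were already dimmer at 48 h than at 24 h, and Fos and Epha4 were not.

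Ccnd1, cyclin D1, which drives entry into the cell cycle, had intensities of 9864 with the drug, 10149.7 at 24 h, 3222 at 48 h and 1305 at 72 h, a difference of -1.28, with -1.56 and -1.52 on its other probe sets. Dusp4, a phosphatase that acts on ERK in the nucleus, stood at 1303, 1054, 331 and 86.8, a difference of -1.61. Ier3, an early response gene, stood at 1732, 1371, 611 and 201, a difference of -1.47. The 3 genes were near their control level at 24 h, lower at 48 h and lower again at 72 h. Dusp6, the cytoplasmic ERK phosphatase, stood at 1706, 1338, 334 and 156, a difference of -0.96, just under the limit. Spry2, a feedback inhibitor of RAS signalling, differed by -0.79, with -0.19 on another probe set, Phlda1 by -0.74, and Hbegf, a ligand of the EGF receptor, by -0.73. Other members of the list had little further difference after 48 h. Fosl1, the AP-1 factor FRA1, stood at 244, 206, 74.7 and 68.6, a difference of -0.08. Egr1, an immediate early factor, stood at 934, 867, 489 and 473, a difference of -0.05. Spry4 stood at 231, 163, 53.1 and 44.9, a difference of -0.15. Their low values at 48 h were close to those at 72 h. The added 32 shrinks differences at the level of Spry4 and, less so, at that of Fosl1. Its part in these small differences was not tested.

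The remaining genes 2-fold lower formed patterns that were grouped after their values were seen. In a first pattern the level was lower at 48 h and lower again at 72 h. Prkg2, a cGMP-dependent kinase, had intensities of 5274 with the drug, 5328 at 24 h, 1623 at 48 h and 251 at 72 h, a difference of -2.55, the lowest of all genes, with -0.76 and -2.63 on its other probe sets. Igfbp3, an IGF binding protein, stood at 6199, 6099, 884 and 243, a difference of -1.73, with -1.17 on another probe set. Hmga2, a chromatin protein of embryonic and tumour cells, stood at 3591, 3799.5, 380.2 and 127.8, a difference of -1.37, with -1.08, -0.17 and -1.24 on its other probe sets. Each of these was bright on the first 2 arrays and dim on the last. Lgr6, an R-spondin receptor, differed by -1.55, with -0.77 on another probe set, and Slc14a1, a urea transporter, by -1.47, with -0.98 on another. Nefl, the light neurofilament chain, differed by -1.21. Id4, an inhibitor of bHLH factors, stood at 482, 736, 415 and 152, a difference of -1.28, with -1.98 and -1.73 on its other probe sets. Id4 was lower at 48 h than at 24 h but near its control level, so it shares this pattern only in part. On another probe set its 48 h value of 504 was above the control value of 410.

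In a second pattern the 48 h level differed less from that at 24 h, and the lowest value was on the 72 h array. The difference from 24 to 48 h ranged from -0.45 (Dlk1) to 0.47 (Ccn2) in these genes. Adamts1, a protease that cleaves proteoglycans, had intensities of 1408 with the drug, 1317 at 24 h, 1350.2 at 48 h and 308 at 72 h, a difference of -2.02. Nt5e, the ectonucleotidase CD73 that makes adenosine, stood at 2434, 1834, 1592 and 414, a difference of -1.87, with -2.21 and 0.02 on its other probe sets. Lmo4, a LIM-domain cofactor, stood at 814, 949, 1011 and 289, a difference of -1.70. The first 3 arrays were close together for Adamts1 and Lmo4 and spread further for Nt5e. Ccn1 and Ccn2 encode secreted matricellular proteins, CYR61 and CTGF. Ccn1 stood at 331, 322, 454 and 122, a difference of -1.66, with -1.57, 0.00 and -0.26 on its other probe sets. Ccn2 stood at 2509, 1845, 2576 and 994, a difference of -1.35. Both were highest at 48 h and lowest at 72 h. Dlk1, a membrane ligand related to the Notch ligands, stood at 6791, 7294, 5332 and 1490.3, a difference of -1.82, with -0.22 on another probe set. Tes, a LIM protein of focal adhesions, stood at 1697, 2043, 1753 and 737, a difference of -1.22.

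A few genes differed by 2-fold in this step and by 2-fold the other way between 24 and 48 h, steps that share the 48 h array, so that a single high or low 48 h value gives both. Il33, a cytokine released from damaged cells, had intensities of 581 with the drug, 614 at 24 h, 236 at 48 h and 852 at 72 h. Ccl6, a chemokine of myeloid cells, stood at 315, 206, 84.3 and 292. Both were lowest at 48 h, as Acta1 was. Mmp9 stood at 306, 209, 597 and 189, and Nedd4 stood at 1402, 1739.7, 4101 and 1679. These were highest at 48 h. Another probe set of Mmp9 differed by -1.84 in the step, whereas the others of Nedd4 differed by -0.19 and -0.68 and that of Ccl6 by 0.64, so for Nedd4 and Ccl6 the 2-fold difference rests on 1 probe set.

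Immediate early genes did not share 1 direction. Of 24 kept, 18 were below 0 and 6 above, with a median of -0.25. In this list 1 gene was 2-fold higher and 2 were 2-fold lower, Ccn1 and Ccn2, which are described above. The CArG box, the motif that the factor SRF is known to bind, was searched in the promoters of the list. It was in 2 of the 19 members with a promoter and in 0 of the 2 that were 2-fold different. Over all 27025 genes the share was 1.806%. Fos stood at 456 with the drug, 486 at 24 h, 553 at 48 h and 326 at 72 h, a difference of -0.71, and Junb differed by -0.68. Atf3, a factor induced by stress, stood at 118, 115, 264 and 692, a difference of 1.29. Fosl2, the AP-1 factor FRA2, stood at 278, 269, 315 and 648, a difference of 0.97, with -0.09 on another probe set. Fos and Junb were thus lowest at 72 h on the arrays on which Atf3 and Fosl2 were highest.

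Schwann and neural crest genes had a median of 0.01 over 27 kept, with 5 of them 2-fold higher and none 2-fold lower. The 5 include Postn, described above beside the matrix genes, and Mbp, myelin basic protein, at 1.12. Other probe sets of Mbp above the filter differed by -0.07 to 0.74, so its 2-fold difference rests on 1 probe set. Kcna1, a potassium channel, had intensities of 27.9 with the drug, 21.9 at 24 h, 309.8 at 48 h and 931 at 72 h, a difference of 1.49, with 0.53 and 1.09 on its other probe sets. Matn2, the matrix protein matrilin-2, stood at 51.5, 49.5, 461 and 1036, a difference of 1.12. Scn7a, a sodium channel, stood at 47.3, 33.0, 95.1 and 286, a difference of 1.32, with 0.67 and 0.97 on its other probe sets. All 3 were higher at 48 h than at 24 h and highest at 72 h. Cdh19, a cadherin of Schwann cell precursors, stood at 691, 878, 2753 and 2834, a difference of 0.04, so that its level at 48 and 72 h was near equal. Nes, the intermediate filament nestin, stood at 3637, 3376, 1501 and 831, a difference of -0.83, with -0.34 and -0.19 on its other probe sets.

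Growth, energy and survival lists had medians from -0.25 to 0.09. G2/M genes had a median of 0.00 over 26 genes, with 11 above and 11 below, S phase genes -0.08 over 23, and ribosome biogenesis genes -0.00 over 23, and none of these genes was 2-fold different. Mki67, the proliferation marker Ki-67, had an intensity of 159 at both 48 and 72 h. Glycolysis genes had a median of -0.25, with 11 of 15 below 0. Pgk1, phosphoglycerate kinase, stood at 8534 with the drug, 8209 at 24 h, 6672 at 48 h and 4319 at 72 h, a difference of -0.62. Pfkm, the muscle phosphofructokinase, went the other way at 0.79. Oxidative phosphorylation had a median of -0.01 over 22 genes and sterol and fatty acid synthesis -0.13 over 21. In the list of ATF4 and unfolded protein genes the median was 0.06, with Asns, asparagine synthetase, at -0.88 and Hspa5, the chaperone BiP, at 0.42. Of the FOXO targets, Txnip, an inhibitor of thioredoxin and glucose uptake, stood at 376, 405, 716 and 1698, a difference of 1.21 with 0.27 on another probe set, and Ccng2, cyclin G2, differed by -0.67. In the BCL2 family 11 of 14 were above 0 with a median of 0.09, and Bcl2l11, the death promoter BIM, stood at 367, 543, 909.8 and 1062, a difference of 0.22, with 0.20, -0.70 and -0.17 on its other probe sets.

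Other probe sets of a gene allow a check within the same arrays. Of the 121 genes 2-fold higher, 47 had another probe set above the filter; for 36 all of these had the same direction and for 7 all were 2-fold higher. Of the 28 genes 2-fold lower, 19 had another, 17 with the same direction throughout and 6 with all 2-fold lower. Probe sets share the hybridised RNA, so this bears on the probes and not on the tumours.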

How the data were processed

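RNA was measured on 4 Affymetrix arrays, grouped by the treatment on the labels, with 1 array per group. The authors deposited 1 intensity per probe set in linear units. MAS5 and RMA appear in the submitters' processing notes, without version or use; the program behind these values and the scaling were not given in the sources used here. Among 45037 probe sets 17.5%, and 13.5% of the genes used, had exactly equal values at 48 and 72 h, which shrinks differences; the origin of these ties is unknown. The number of arrays limits the precision.

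Symbols came from the platform annotation, updated through RefSeq: 34945 probe sets had 1 symbol and were used, 932 had several and 9160 were unnamed here. For each gene the probe set with the highest mean log2 value was taken, and genes with a mean no lower than the 40th percentile over probe sets (intensity 24.8) were kept. The deposited intensities were turned into log2(intensity + 32) with no further normalization, and differences between arrays were computed with no test. The gene lists, members and rules were chosen with earlier results of these data known. Naming rules gave the 20 highest and 20 lowest differences, the 15 highest and lowest outside host cell lists, and all ERK output genes. They also gave up to 8 members of each list with the greatest size, and genes 2-fold different in opposite directions in successive steps. Not all genes that these rules gave are described in the text. Other genes were picked after their values were seen: Nras, the genes at the limits, Mki67, list members near 0 or against their list, Iigp1, Irgm1, Gbp2, Cdh19, Actn3, Pvalb, Pygm, Ryr1, Adgre1, Stab1, F13a1, Apoe, Selenop, Nefl and Tes. So was the grouping of the lower genes. Promoters came from RefSeq (GRCm38.p6). Python 3.11.15, pandas 2.3.3, NumPy 2.4.6 and matplotlib 3.10.9 were used, and the code was tested on simulated data. Alternatives were quantile normalization, median centring, other pseudocounts and filters, the mean over probe sets, another choice of brightest probe set, and leaving out probe sets ending in _x_at or _s_at, tied genes, or muscle and fat genes.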

Additional observations from a re-analysis of the deposited data

How the results depend on the processing

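No paired analysis was possible because each group has 1 array, and for the same reason no array could be left out of the step. The pseudocount had the greatest effect on the counts: with one 4 times as high they were 65 higher and 15 lower, with 8 they were 161 and 40, and with none, tried after seeing the data, 183 and 45. The mean over probe sets gave 83 and 25. With the filter on the control and 24 h arrays they were 112 and 28, and without the muscle and fat list genes, also tried after seeing the data, 99 and 28. Quantile normalization (122 and 32) and median centring (114 and 30) moved the median of all genes by 0.0046 and -0.0317. Among 2-fold different genes under the naming rules, Laptm5 alone took the opposite sign, without probe sets ending in _x_at or _s_at. Its value was then -0.024, that of a dimmer probe set with intensities of 74.5 at 48 h and 72.7 at 72 h. List medians moved by over 0.1 in 34 of their values and by less in 431. Medians of 5 lists, none over 0.1114 in size, took the opposite sign in 6 values: neural crest and Schwann genes and chemokines with median centring (-0.0183 and -0.0214), FOXO targets with no filter (0.0063), and p53 targets, neural crest and Schwann genes and MHC class II when probe sets were averaged (-0.0017, -0.0183 and -0.0107). With signals near background, dim genes such as the muscle genes at 48 h have uncertain baselines.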

Other observations

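Imprinted genes, a list drawn up after values in the step had been seen, had a median difference of 0.28 over 18 genes kept, with 13 above 0 and 4 below; 3 were 2-fold higher and 1 was 2-fold lower. Meg3 and Dlk1 lie in 1 imprinted domain and are expressed from opposite parental alleles. Meg3, a long noncoding RNA, had intensities of 557 with the drug, 485 at 24 h, 448 at 48 h and 2359.7 at 72 h, a difference of 2.32, and its other probe sets ranged from -0.27 to 2.81. Dlk1 differed by -1.82. Rian and Mirg, noncoding RNAs of the same domain, differed by 0.29 and 0.37. Plagl1, an imprinted zinc finger factor, stood at 53.6, 63.1, 63.0 and 448, a difference of 2.34, and Mest, an imprinted hydrolase-like gene, differed by 0.99. The step thus had an imprinted pair with differences of opposite sign, and the part of muscle or stromal RNA in it was not tested.

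Targets of the YAP and TEAD factors, a list also drawn up after values were seen and holding Ccn1 and Ccn2, had a median of -0.06 over 20 genes kept, with 13 below 0, 5 above and 4 2-fold lower (Ccn1, Ccn2, Nt5e and Igfbp3). Axl, a receptor kinase, differed by -0.78, and F3, tissue factor, by 0.75. Among actin and SRF target genes, again a list drawn up after values were seen, 11 of 15 were below 0 with a median of -0.19. Actb, cytoplasmic actin, stood at 13968 with the drug, 18691 at 24 h, 16792 at 48 h and 9501 at 72 h, a difference of -0.82, whereas Tpm1, a tropomyosin, differed by 0.65.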
